A study of Arabidopsis thaliana with 3 samples.

Results

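GPDHC1 (AT2G41540) encodes the glycerol-3-phosphate dehydrogenase that works with NADH in the cytosol of Arabidopsis thaliana cells, and its transcript was measured in leaves of plants overexpressing the transcription factor WIN1. It is 1 of the 3592 genes that could be paired with a probe set, a group of short probes against 1 transcript, on the Affymetrix Arabidopsis genome array used. The gene was chosen because its intensity was higher in both WIN1 lines than in the control, so that difference is given below as a description, with no test. The first WIN1 array held leaf RNA pooled from several T2 plants of 35S:WIN1 line 13, the second leaf RNA pooled in the same way from 35S:WIN1 line 22, and the control array held pooled leaf RNA of plants that carried an empty binary vector. The title of the control sample calls it a WT control, while its description gives the empty vector. In the lines the 35S promoter of cauliflower mosaic virus, active in most tissues, drives WIN1. Each line had 1 array, and no age or growth condition is given in the labels.

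Glycerol-3-phosphate dehydrogenases of this kind use NADH to reduce dihydroxyacetone phosphate, a triose phosphate of glycolysis, to glycerol-3-phosphate. Glycerol-3-phosphate is the backbone onto which acyltransferases load fatty acids to make membrane and storage glycerolipids, and related acyltransferases use it to make the glycerol-linked monomers of cutin, the polyester of the leaf cuticle. The cytosolic enzyme also works with an FAD-dependent partner in mitochondria as a shuttle that carries reducing power out of the cytosol, and Arabidopsis plants lacking GPDHC1 are known for a disturbed balance of NADH and NAD. WIN1, an AP2/ERF factor also called SHINE1, is known for glossy leaves with more wax and cutin when overexpressed.

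The probe set of GPDHC1 was brighter on both WIN1 arrays than on the control array. Its deposited intensity was 573.2 for line 13 and 436.3 for line 22, versus 95.86 for the control. Both WIN1 values therefore lay above the control before any scaling, although line 22 was the dimmest array as a whole. Over all probe sets the median deposited intensity was 70.2 on the line 13 array, 35.2 on the line 22 array and 84.1 on the control array, and the deposited values are thus not on 1 common scale. After each array was scaled to a common trimmed mean, GPDHC1 had an intensity of 562.5 for line 13 and 612.4 for line 22, versus 75.56 for the control. The scaled intensity was 7.44-fold that of the control for line 13 and 8.11-fold for line 22. The deposited intensity was 5.98-fold that of the control in line 13 and 4.55-fold in line 22.

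**Figure D1:**
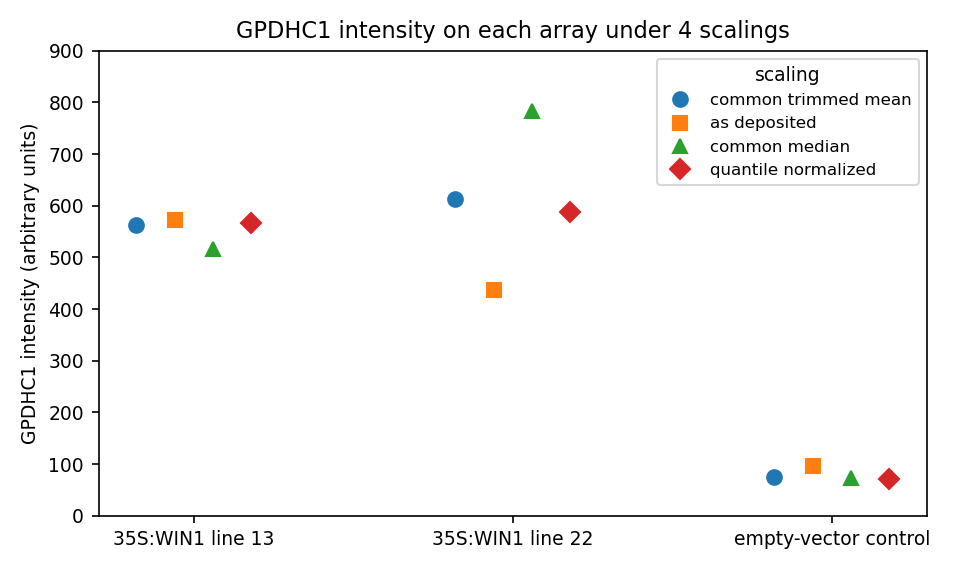
GPDHC1 intensity (vertical axis, arbitrary units, from 0) on the 3 arrays, 1 point for each of 4 scalings and no error bars because each line and the control had 1 array. Under every one of these scalings both WIN1 lines lie between 436.3 and 782.7 and the control between 71.21 and 95.86, while the order of the lines turns with the scaling.

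All ratios were taken on the scale of log2(intensity + 18.6), where the added pseudocount of 18.6 keeps dim values from giving extreme ratios and makes the ratio of a dim probe set smaller. On that scale the level of GPDHC1 was 9.18 for line 13 and 9.30 for line 22, versus 6.56 for the control. The log2 ratio to the control was 2.63 in line 13 and 2.75 in line 22, with a mean of 2.69 ± 0.084 (SD, n = 2 lines). The control intensity of GPDHC1 lay above the pseudocount. The SD covers the spread between the lines alone, because both ratios use the same control array and that array has no replicate. It also depends on the scaling, at 0.269 on the deposited values, 0.414 with a common median and 0.035 after quantile normalization. A control intensity of 272, which is 3.6-fold the measured one and a shift of 1.63 in log2 level, would bring the smaller of the GPDHC1 ratios down to 2-fold. In bulk leaf RNA, a change in the number of cells that express GPDHC1 cannot be told apart from a change in its RNA per cell.

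The position of GPDHC1 within each array does not depend on how the arrays are scaled. In line 13, 89.5% of the 8247 probe sets had a lower intensity than GPDHC1, and in line 22 89.9% did, against 52.1% in the control. The gene thus stood at almost the same height in the order of both WIN1 arrays and near the middle of the control array. These positions describe order on an array and not the abundance of GPDHC1 relative to other transcripts, since probe sets differ in brightness for equal amounts of RNA.

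Of the 8247 probe sets, 5773 were bright enough to be kept for comparison. Ordered by whichever of their line ratios was smaller, GPDHC1 was in place 2 among these, behind a probe set that is unnamed here and whose log2 ratios were 6.86 for line 13 and 6.31 for line 22. That place was 5 on the deposited values and with the arrays scaled to the sum of 5 leaf mesophyll genes, an alternative chosen after seeing the data, and 8 with a pseudocount at the 5th percentile. By the ratios of 1 line alone it was 4 for line 13 and 9 for line 22. Taken line by line, 3 kept probe sets had a higher ratio than GPDHC1 in line 13 and 8 in line 22. Next after it came AT1G05310, whose smaller ratio was 2.41. Among kept probe sets, 50 were at least 2-fold higher in both lines (0.866%) and 32 were at least 2-fold lower in both (0.554%), but on the deposited values 22 were higher and 107 lower. With the arrays scaled to the mesophyll genes, 36 were higher and 43 lower. GPDHC1 is among the 50 because it was chosen for its rise. The control intensity exceeded the pseudocount in 30 of the 50.

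**Figure D2:**
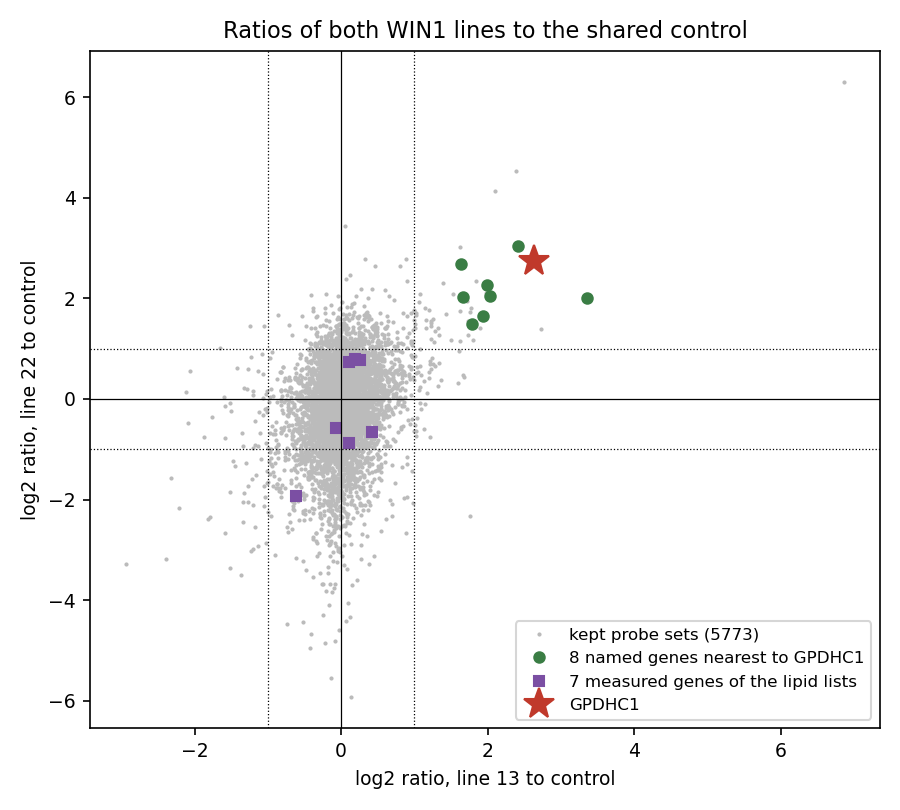
Log2 ratio to the control in line 13 (horizontal axis) and in line 22 (vertical axis), 1 point per kept probe set or gene, with dotted lines at 2-fold. GPDHC1 (star, 2.63 and 2.75) lies in the sparse upper right, next to the 8 named genes closest to it. The 7 kept genes of the lipid lists lie within the main cloud or below it. The ratios share the control array, so its error moves every point along the diagonal.

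The log2 difference in GPDHC1, line 13 minus line 22, was -0.12 with the main scaling, under which 11.4% of kept probe sets had a smaller difference in either direction. Over all kept probe sets, 21.9% were at least 2-fold apart between the lines. The log2 ratios of all 5773 kept probe sets had an SD of 0.401 for line 13 and 0.936 for line 22. Those of the 577 kept probe sets of like intensity (the same of 10 equal bins) had an SD of 0.349 for line 13 and 1.01 for line 22. The sign of the difference in GPDHC1 was not settled, since it was 0.38 on the deposited values, 0.51 with the mesophyll genes as the scale and -0.59 after scaling to a common median. With 1 array for each line, this difference has no replicate check.

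Only 1 probe set was paired with GPDHC1 alone, so no second probe set of the gene could be compared with it. Whether any of the 4383 probe sets paired with no gene, or of the 70 paired with several, also reads GPDHC1 was not tested. For 108 genes more than 1 probe set was kept, and the log2 ratios within such a gene had an SD of 0.216 for line 13 and 1.12 for line 22. Over all kept probe sets the SD was 0.401 for line 13 and 0.936 for line 22. In line 22, probe sets of the same gene thus differed no less than kept probe sets at large. No probe sequences were used here, so a contribution to the signal from related dehydrogenase transcripts was not tested.

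The same direction was found under each scaling and each treatment of dim values. The mean log2 ratio of GPDHC1 lay between 2.19 on the deposited values and 2.96 with dim values raised to a floor instead. The scaling moved line 22 more than line 13. Across scalings the line 13 ratio ranged from 2.38 on the deposited values to 2.70 after quantile normalization, and the line 22 ratio from 1.998 on the deposited values to 3.13 with a common median. GPDHC1 was at least 2-fold higher in both lines under every one of these settings.

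**Figure D3:**
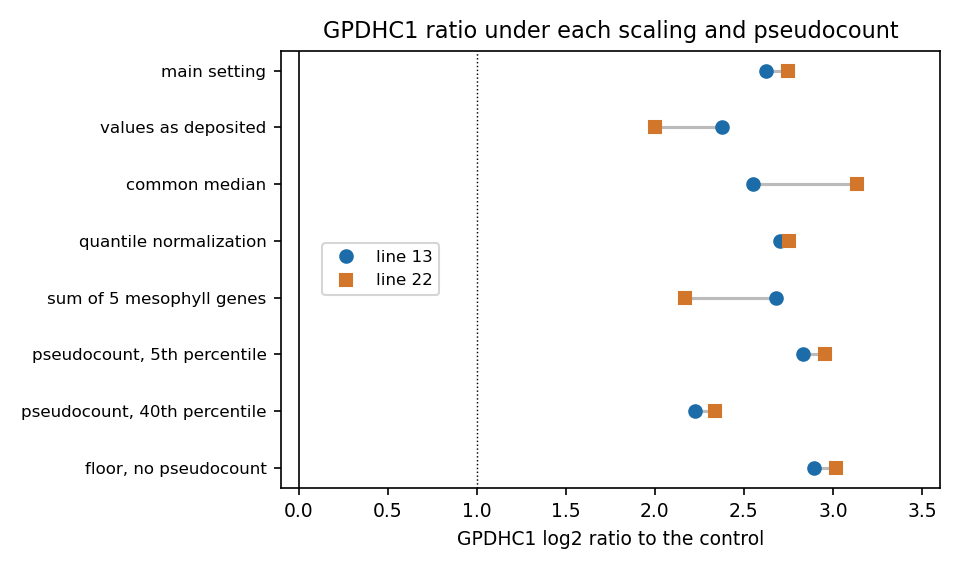
GPDHC1 log2 ratio to the control (horizontal axis) under the main setting and 7 other scalings or treatments of dim values (rows), with a point for line 13 and a square for line 22 and a dotted line at 2-fold. All points lie to the right of 2-fold, from 1.998 to 3.13.

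Genes that resembled GPDHC1 in these arrays were found by the distance between log2 ratios to the control in both lines, among 2597 kept probe sets paired with 1 gene. These 8 were chosen by their ratios, so their likeness is a description and no count of them was tested. The closest was AT1G05310, of the pectinesterase family, whose members remove methyl groups from cell wall pectin. It had a scaled intensity of 608.9 for line 13 and 948 for line 22, versus 99.61 for the control. Its log2 ratios of 2.41 and 3.03 in lines 13 and 22 lay at a distance of 0.36 from those of GPDHC1. AT2G42990 and AT2G04570, both of the GDSL family of lipases and esterases, lay at distances of 0.79 and 1.04. AT2G04570 had an intensity of 1521 for line 13 and 585.6 for line 22, versus 132.3 for the control, so its WIN1 values were further apart than those of GPDHC1. AT2G39980 is a member of the HXXXD-type acyltransferases and had 245.1 for line 13 and 321.1 for line 22, versus 64.7 for the control. The others were AT4G15140, AT4G24130, AT1G03010 and AT2G23440, the last at a distance of 1.51.

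Only 3 of these 8 genes, AT1G05310, AT2G04570 and AT2G39980, had a control intensity above the pseudocount, as GPDHC1 did. In AT2G42990, AT4G15140, AT4G24130 and AT1G03010 it lay between 6.20 and 13.8, and in AT2G23440 it was below 0 (-5.04). The pseudocount therefore sets the ratios of these 5 to a large part. A further 14 kept probe sets, paired with no gene or with several, lay as close to GPDHC1 as the 8 did. With the deposited values the same 8 genes were nearest, and with a common median or quantile normalization 7 of the 8 were.

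**Figure D4:**
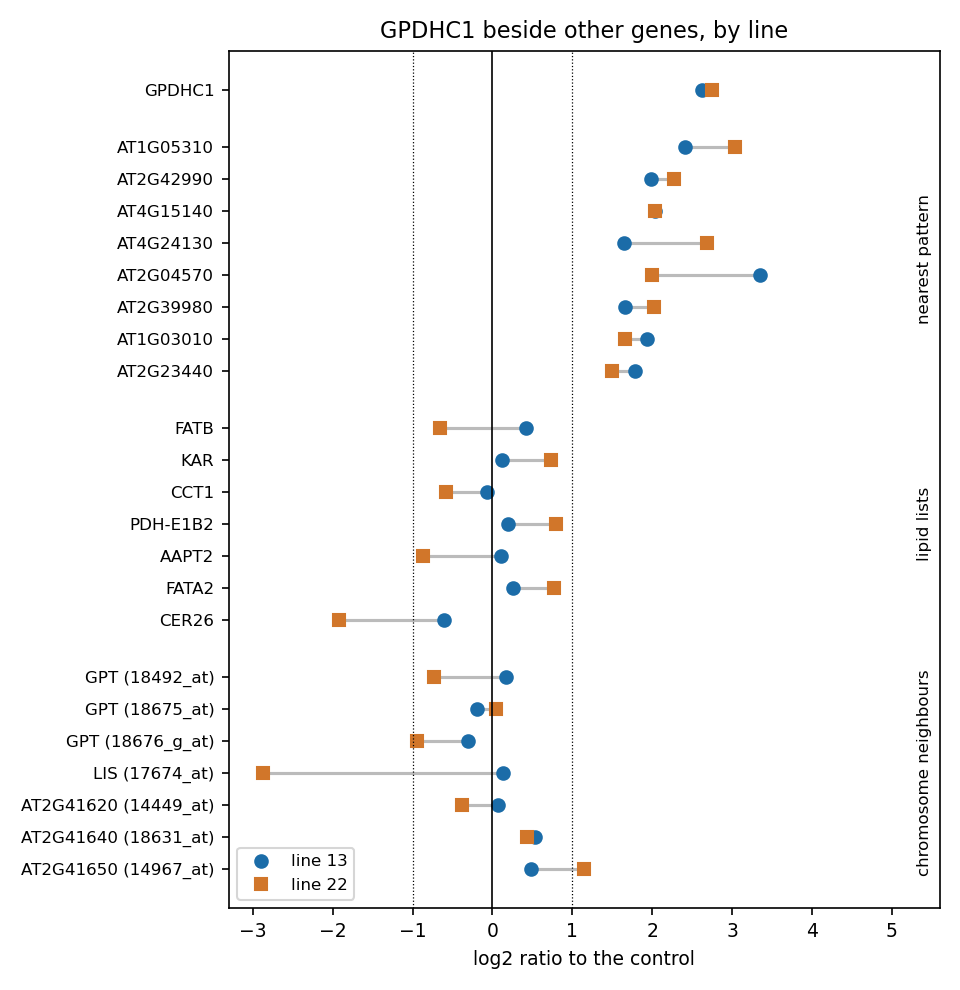
Log2 ratio to the control (horizontal axis) for GPDHC1, the 8 genes nearest to it, the 7 kept genes of the lipid lists and the 7 kept probe sets of its chromosome neighbours (rows), with a point for line 13, a square for line 22 and dotted lines at 2-fold. GPDHC1 was chosen for its rise and the 8 genes for ratios near its own, so their places above 2-fold in both lines follow from that choice. None of the other rows is above 2-fold in both lines.

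The rest of the pathway was looked at through lists of genes for glycerol-3-phosphate supply, its acyltransferases, triose phosphates, cytosolic NADH, glycerolipid assembly, desaturases, plastid fatty acid synthesis, cutin, wax and phospholipases. Of their 175 members other than GPDHC1, 9 were paired with a probe set and 7 were kept. No other gene of glycerol-3-phosphate supply (18 listed) and no glycerol-3-phosphate or lysophosphatidate acyltransferase (15 listed) was paired, so the enzymes directly before and after GPDHC1 were not analysed here. The same holds for the lists of triose phosphates, cytosolic NADH, desaturases, cutin and phospholipases. None of the 7 kept genes passed the limma test, a moderated linear model adjusted by Benjamini-Hochberg over all kept probe sets (adjusted p = 1 for each of their probe sets). That test called 2 kept probe sets as higher (0.0346%) and 0 as lower (0%), and 129 of 5773 had a limma p under 0.05 without adjustment (2.23%). The count of 2 fell to 0 after quantile normalization, with a floor and with all probe sets kept, and was 4 with a pseudocount at the 40th percentile. The test has 1 residual degree of freedom, from the difference between the lines, and assumes that the lone control varies as they do. The error it uses for a probe set is drawn toward a trend over all kept probe sets, so it reflects that probe set's own spread only in part.

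Of the 7 genes, with probe sets of 1 gene averaged, 3 were higher in both lines, 2 (CER26 and CCT1) were lower in both and 2 went opposite ways, none of them 2-fold in both lines. The count for CCT1 comes from averaging probe sets that disagree, as described below. Over all kept probe sets, 27.1% were higher in both lines and 30.4% lower in both. The median of the 7 mean log2 ratios was -0.12, against -0.04 over all kept probe sets, and it turned to 0.03 with a common median and to 0.02 after quantile normalization. The median over the 7 genes was 0.11 in line 13 and -0.58 in line 22.

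The genes higher in both lines belong to plastid fatty acid synthesis, which makes the acyl chains that are joined to glycerol-3-phosphate. KAR (AT1G24360), the ketoacyl-ACP reductase, had a scaled intensity of 1487 for line 13 and 2293 for line 22, versus 1373 for the control. FATA2 (AT4G13050), an acyl-ACP thioesterase that releases fatty acids for export, had 190 for line 13 and 279.2 for line 22, versus 156.3 for the control. AT2G34590, a subunit of plastid pyruvate dehydrogenase, had 634.9 for line 13 and 979.1 for line 22, versus 554.1 for the control. In each of these the WIN1 values exceeded the control, with mean log2 ratios of 0.42 for KAR, 0.51 for FATA2 and 0.50 for AT2G34590. In line 22 the log2 ratio was 0.73 for KAR, 0.77 for FATA2 and 0.80 for AT2G34590. The 5 kept leaf mesophyll genes had 0.74 (PRK), 0.80 (RCA), 0.71 (PSAE1), 0.48 (LHCB4.1) and 0.18 (SBPASE) in line 22. In line 13 the log2 ratio was 0.11 for KAR, 0.25 for FATA2 and 0.19 for AT2G34590. For the mesophyll genes in line 13 it ran from -0.06 (PSAE1) to 0.09 (PRK). The part of mesophyll RNA in these differences was not tested. On the deposited values, however, none of KAR, FATA2 and AT2G34590 was above the control in both lines. KAR and AT2G34590 were below it in both. KAR had 1515 for line 13 and 1633 for line 22, versus 1742 for the control. AT2G34590 had 646.93 for line 13 and 697.55 for line 22, versus 702.94 for the control. FATA2 had 193.6 for line 13 and 198.9 for line 22, versus 198.4 for the control. FATB (AT1G08510), the thioesterase for saturated acyl chains, went opposite ways, at a log2 ratio of 0.42 for line 13 and -0.66 for line 22.

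Of glycerolipid assembly, AAPT2 (AT3G25585), an aminoalcohol phosphotransferase of phospholipid synthesis, had an intensity of 94.24 for line 13 and 38.57 for line 22, versus 86.05 for the control. CCT1 (AT2G32260), the enzyme that activates choline phosphate for phosphatidylcholine synthesis, had a pair of probe sets that disagreed in direction in both lines. The first had 621.8 for line 13 and 1714 for line 22, versus 803.1 for the control, whereas the second had 328.5 for line 13 and 44.61 for line 22, versus 280.6 for the control. Neither probe set was lower in both lines, and the direction of CCT1 is not known in either. CER26 (AT4G13840), which acts in the elongation of very-long-chain fatty acids for wax, had 257.7 for line 13 and 93.03 for line 22, versus 403.4 for the control, the lowest mean log2 ratio of the 7 (-1.26 ± 0.925, SD, n = 2 lines). The dim members were CDS3 (AT4G26770), a CDP-diacylglycerol synthase, and FATA1 (AT3G25110), with a scaled intensity of at most 14.65 on all 3 arrays.

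Only some of the genes around GPDHC1 on its chromosome were paired with a probe set. Of the 10 protein-coding genes on either side of GPDHC1 in the RefSeq annotation TAIR10.1, 6 of 20 were paired with a probe set, and 5 of these had 7 kept probe sets. The nearest paired ones lay 6 genes away on either side, so the immediate neighbours were not analysed here. None of the 7 was 2-fold higher in both lines. For line 13 their log2 ratios ran from -0.31 to 0.53, and for line 22 from -2.88 to 1.14. The highest in line 22 was AT2G41650, with an intensity of 152.6 for line 13 and 251 for line 22, versus 103.7 for the control. The lowest in line 22 was LIS (AT2G41500), known as LACHESIS, with 400.8 for line 13 and 33.34 for line 22, versus 362.6 for the control. These neighbours were looked at because of their position and fall outside the rule for named genes.

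Leaf mesophyll genes were looked at beside the tissue label. They cannot test that label, because no listed marker of another tissue or cell type was paired with a probe set. Of 11 mesophyll genes listed, 5 were paired with a probe set (LHCB4.1, PSAE1, RCA, PRK and SBPASE). Their summed scaled intensity was 8899 for line 13 and 13950 for line 22, versus 9010 for the control. All 5 were among the kept probe sets. SBPASE, a Calvin cycle enzyme, was the dimmest of the 5, with 522.8 for line 13 and 620.1 for line 22, versus 543.7 for the control. In line 22 this sum was higher, and scaling the arrays to it instead, as above, gave GPDHC1 log2 ratios of 2.68 for line 13 and 2.17 for line 22. None of the 7 epidermis, 4 vasculature, or 6 flower, seed and root markers was paired with a probe set, nor was WIN1 (AT1G15360) itself. The level of WIN1 was therefore not analysed here, and the part of other cell types in the GPDHC1 difference was not tested.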

How the data were processed

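RNA of 3 leaf pools was hybridised to 3 Affymetrix arrays, per the labels' protocols. All arrays came from 1 chip lot and carry the same scan date, per the file headers. The deposited values were linear intensities for 8247 probe sets, of which 13.6% to 16% on an array were at or below 0. The method that summarised probes is not given in the sources used here, and the array number limits the precision. The deposited experiment information files hold other text entries on lot and scan and no measurements.

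Arrays were multiplied by 0.981 (line 13), 1.4 (line 22) and 0.788 (control) to a common mean trimmed by 2% at each end. Negative values were raised to 0, and log2 was taken after adding 18.6, the 20th percentile of positive values. Probe sets above the 30th percentile of mean log2 value were kept. Both lines were set against the control with limma 3.58.1 in R 4.3.3 (lmFit, eBayes with trend, two-sided, Benjamini-Hochberg, threshold 0.05), tested on simulated data. GPDHC1 was in that fit and its adjustment, but its p is not given because it was chosen on these values. Whether the plants of the pools were grown separately is not stated. The p-values rest on the spread between the lines, which eBayes draws for each probe set toward a trend over all kept probe sets. Thus SBPASE, with an SD of 0.169 between the lines, had a limma standard error of 0.73. The second CCT1 probe set, with an SD of 1.738, had 0.784. The variation of the control was not measured.

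GEO's platform annotation paired 3794 probe sets with 1 gene, 70 with several and 4383 with none; 3784 matched a locus of RefSeq assembly TAIR10.1, giving 3592 loci. No coordinates are given because the files name no build. Named genes were GPDHC1, every list member paired with a probe set and the 8 kept probe sets paired with 1 gene nearest by ratio. The members and lists were chosen with earlier results of these data known. Alternatives were other scalings, pseudocounts, filters, fold thresholds and eBayes settings, and leaving out each line.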

Additional observations from a re-analysis of the deposited data

How the results depend on the processing

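No paired analysis was possible because a single control cannot be matched with both lines. With 1 line left out limma could not be run, for want of a residual degree of freedom. The mean log2 ratio of GPDHC1 (2.69) was 2.19 on the deposited values, 2.84 with a common median, 2.42 with a common sum of mesophyll genes (an alternative chosen after seeing the data), 2.89 with the 5th percentile as pseudocount, 2.28 with the 40th, and 2.96 with a floor; the lines alone gave 2.63 to 2.75. Its difference between the lines (-0.12) turned to 0.38 on the deposited values and 0.51 with the mesophyll sum, and was -0.59 with a common median. Its place (2) was 5 on the deposited values and with the mesophyll sum, 8 with the 5th percentile pseudocount, and 4 to 9 by single lines. The limma count (2) was 1 with a common median, 0 with quantile normalization (60 at p under 0.05 without adjustment), 1 with the 5th percentile as pseudocount, 4 with the 40th, 0 with a floor (43 without adjustment), 0 without the filter (307 without adjustment), and 1 without trend and with robust eBayes. The probe sets 2-fold higher in both lines (50) and lower in both (32) were 22 and 107 on the deposited values, 85 and 62 with the 5th percentile as pseudocount, 21 and 18 with the 40th, and 32 and 15 when the filter was the 50th percentile; those lower were 80 with a floor and 59 without the filter. At 1.5-fold they were 132 and 143, at 3-fold 20 and 6, and by single lines 86 to 426 and 72 to 946. With the mesophyll sum the 2-fold counts were 36 higher and 43 lower. The share that was higher thus depends on the scaling. The lipid list median (-0.12) was -0.61 on the deposited values and -0.37 with the mesophyll sum. It turned to 0.033 with a common median and 0.021 after quantile normalization, and ranged from -0.58 to 0.11 over the lines. Fewer or more kept probe sets and a larger pseudocount change counts by construction; other causes were not tested.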
